A study of Mus musculus with 9 samples.

Results

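The genes described here are the subunits, activators and assembly factors of the proteasome that carry a Psm symbol with a letter from a to g and a number on the array. There were 45 such genes among 17097 genes with a probe set of their own. Of these, 5 are immune subunits (Psmb8, Psmb9, Psmb10, Psme1 and Psme2) and 40 are the remaining members. Psmc6, Psmd10 and Psme4 were not analysed here. Each gene was represented by the probe set annotated to it alone that had the highest mean over the arrays. The members were chosen by symbol, and their probe sets by level over all groups together.

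RNA was taken from the injected side of the brain, in a block around the injection site, of male C57Bl/6J mice aged 10 to 12 weeks. The mice had received lipopolysaccharide (LPS), a bacterial cell wall component that sets off innate immunity, or phosphate-buffered saline (PBS) into the striatum, and were perfused with saline before collection. There were 3 groups of 3 arrays: PBS at 4 d, LPS at 1 d and LPS at 4 d, where 1 d stands for the induction of the inflammation and 4 d for its resolution. Each array measured RNA pooled from 3 mice, 27 mice in all, so the spread between arrays is that between pools. No PBS group was collected at 1 d, so the effect of LPS at 1 d cannot be told apart from that of time after surgery. The comparisons of LPS at 1 d and at 4 d with PBS share the same 3 PBS arrays.

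The proteasome degrades proteins tagged with ubiquitin. Its core is a barrel of alpha and beta rings in which the beta subunits Psmb5, Psmb6 and Psmb7 cut, and a cap made of the Psmc ATPases and the Psmd subunits recognises, unfolds and feeds in substrates. Under interferon, Psmb8, Psmb9 and Psmb10 are built into new particles in place of Psmb5, Psmb6 and Psmb7, and the PA28 activator of Psme1 and Psme2 can sit on the barrel. These immunoproteasomes make peptides suited to MHC class I, and in the brain they are best known from activated microglia and invading leukocytes.

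Promoter sequence from RefSeq (build GRCm38.p6) is shown for the immune subunits that held an interferon-type motif or share a promoter, and for the constitutive catalytic subunits that held a stress-type motif. The table gave the 250 bases before and 50 bases after the start for 37 of the 45 genes. Capitals mark the match. Psmb8 held the GAS motif (TTCNNNGAA, a STAT dimer site) from base -97, in chr17:34198045-34198144 on the plus strand. Psme1 held the ISRE motif (TTTC, 2 free bases and TTTC again, an interferon-stimulated response element) from base 10 of the transcript, in chr14:55578494-55578523 on the plus strand. Psmb9 and Tap1, a peptide transporter gene, are read in opposite directions from starts 225 bases apart, and the stretch between them, chr17:34187331-34187555 on the minus strand, is printed in lower case as it held neither motif. Psmb5 (chr14:54617996-54618055, minus strand) and Psmb6 (chr11:70525297-70525356, plus strand) held the antioxidant response element core (TGACNNNGC), to which the proteasome regulator Nfe2l1 is known to bind.
Psmb8: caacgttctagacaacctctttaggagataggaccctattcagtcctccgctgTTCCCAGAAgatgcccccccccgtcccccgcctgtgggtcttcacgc
Psmb9: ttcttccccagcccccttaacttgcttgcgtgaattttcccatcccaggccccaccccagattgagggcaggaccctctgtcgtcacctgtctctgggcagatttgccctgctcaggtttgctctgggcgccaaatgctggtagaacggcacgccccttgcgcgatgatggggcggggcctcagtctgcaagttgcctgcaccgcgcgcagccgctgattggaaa
Psme1: gagctgtgcTTTCGCTTTCccttcccgctg
Psmb5: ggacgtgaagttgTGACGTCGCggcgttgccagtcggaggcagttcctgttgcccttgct
Psmb6: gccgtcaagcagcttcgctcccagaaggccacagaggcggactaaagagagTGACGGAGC

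Both strands were searched, N stands for any base, and no matches of different motifs overlapped in these genes. The table held 32851 promoters of 27025 genes. The ISRE was in at least 1 promoter of 3.99% of these genes, in 1 of 5 immune subunits (Psme1) and in 4 of the 32 other members with a promoter (Psmb3, Psmd4, Psmd9 and Psmg4). The GAS was in 9.55% of genes, in 1 of 5 immune subunits (Psmb8) and in 2 of 32 others (Psmd2 and Psmg1). The antioxidant core was in 14.0% of genes, in 0 of 5 immune subunits and in 4 of 32 others (Psmb5, Psmb6, Psmd9 and Psmd12). A match is only a run of letters in the window, and none of the 40 other members, with or without one, passed the test in any comparison described below.

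All 5 immune subunits rose 1 d after LPS, and none of the other 40 members passed the test. A gene passed when limma's moderated test across all 9 arrays gave an adjusted p under 0.05 (Benjamini-Hochberg, over the 45037 probe sets) together with a fold change of at least 1.5. Among all genes, 3.86% passed as higher and 0.532% as lower at 1 d. Against PBS at 4 d, 4 of the 5 immune subunits passed as higher (Psmb8, Psmb9, Psme1 and Psme2) and again none of the 40 others, where 4.21% of all genes passed as higher and 0.205% as lower. None of the 45 passed between LPS at 4 d and LPS at 1 d, where 1.84% of genes passed as higher and 1.37% as lower. At an unadjusted limma p under 0.05, 5 of the 40 others were higher at 1 d (Psma1, Psma6, Psmb11, Psmc4 and Psmd12; 9.4% of all genes) and 0 lower (8.43%), and at 4 d 1 was higher (Psma8; 10.6% of all genes) and 0 lower (7.07%). At that level 8 of the 45 were lower between the LPS times (7.12% of all genes) and 1 was higher (9.18%). The moderated F-test across the 3 groups passed the same 5 immune subunits of the 45, beside 7.67% of all genes.

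Psmb8, the immune chymotrypsin-like catalytic subunit (LMP7), had the largest change among the 45. Its log2 level was 4.47, 3.95 and 4.84 on the PBS arrays, 7.28, 7.85 and 7.74 on the LPS 1 d arrays and 6.70, 6.62 and 6.88 on the LPS 4 d arrays. All 3 groups were apart from each other, with 1 d highest and PBS lowest. The log2 change was 3.20 at 1 d (SE 0.22, 9.22-fold, limma adjusted p = 4.69e-05) and 2.31 at 4 d (SE 0.22, 4.97-fold, limma adjusted p = 0.000428). Between the LPS times it was -0.89 (SE 0.22), which did not pass (limma adjusted p = 0.0903).

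Psmb9, the immune caspase-like position subunit (LMP2), is the divergent neighbour of Tap1 whose shared promoter stretch is printed above. Its log2 level was 4.25, 3.64 and 4.43 under PBS, 5.77, 6.18 and 6.30 at LPS 1 d and 6.06, 5.64 and 5.63 at LPS 4 d. Every LPS array was above every PBS array, while the LPS times overlapped. The log2 change was 1.97 at 1 d (SE 0.22, 3.93-fold, limma adjusted p = 0.000917) and 1.67 at 4 d (SE 0.22, 3.18-fold, limma adjusted p = 0.00293). From 1 d to 4 d of LPS it was -0.31 (SE 0.22, limma adjusted p = 0.62).

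Psmb10, the immune trypsin-like catalytic subunit (MECL-1), was the immune subunit whose level at 4 d overlapped PBS. It read 7.85, 7.74 and 7.52 log2 units under PBS, 8.29, 8.57 and 8.47 at LPS 1 d and 7.83, 7.90 and 7.98 at LPS 4 d. The LPS 1 d arrays were above all others. The log2 change was 0.74 at 1 d (SE 0.11, 1.67-fold, limma adjusted p = 0.0051). At 4 d it was 0.20 (SE 0.11, limma adjusted p = 0.426), with a 95% interval of -0.05 to 0.45. Between the LPS times Psmb10 was 0.54 log2 units lower at 4 d, a change of -0.54 (SE 0.11) with a limma adjusted p of 0.0389. It was the only one of the 45 with an adjusted p under 0.05 in that comparison, where 3.87% of all genes had one, and its 1.46-fold difference was under the minimum of 1.5.

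Psme1 and Psme2, the alpha and beta subunits of the PA28 ring, changed by nearly equal amounts. Psme1 read 7.74, 7.68 and 7.80 under PBS, 8.59, 8.87 and 8.94 at LPS 1 d and 8.37, 8.34 and 8.44 at LPS 4 d. Psme2 read 7.28, 7.29 and 7.41 under PBS, 8.13, 8.49 and 8.47 at LPS 1 d and 7.98, 7.91 and 8.02 at LPS 4 d. For both genes the 3 groups did not overlap, and the order was PBS, LPS 4 d, LPS 1 d. The log2 change of Psme1 was 1.06 at 1 d (SE 0.10, 2.09-fold, limma adjusted p = 0.000294) and 0.64 at 4 d (SE 0.10, 1.56-fold, limma adjusted p = 0.00727). That of Psme2 was 1.03 at 1 d (SE 0.11, 2.05-fold, limma adjusted p = 0.000549) and 0.64 at 4 d (SE 0.11, 1.56-fold, limma adjusted p = 0.0107). Both folds at 4 d lay just above the minimum of 1.5. Between the LPS times the changes were -0.42 for Psme1 and -0.39 for Psme2, and neither passed (limma adjusted p = 0.0777 and 0.127).

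**Figure D1:**
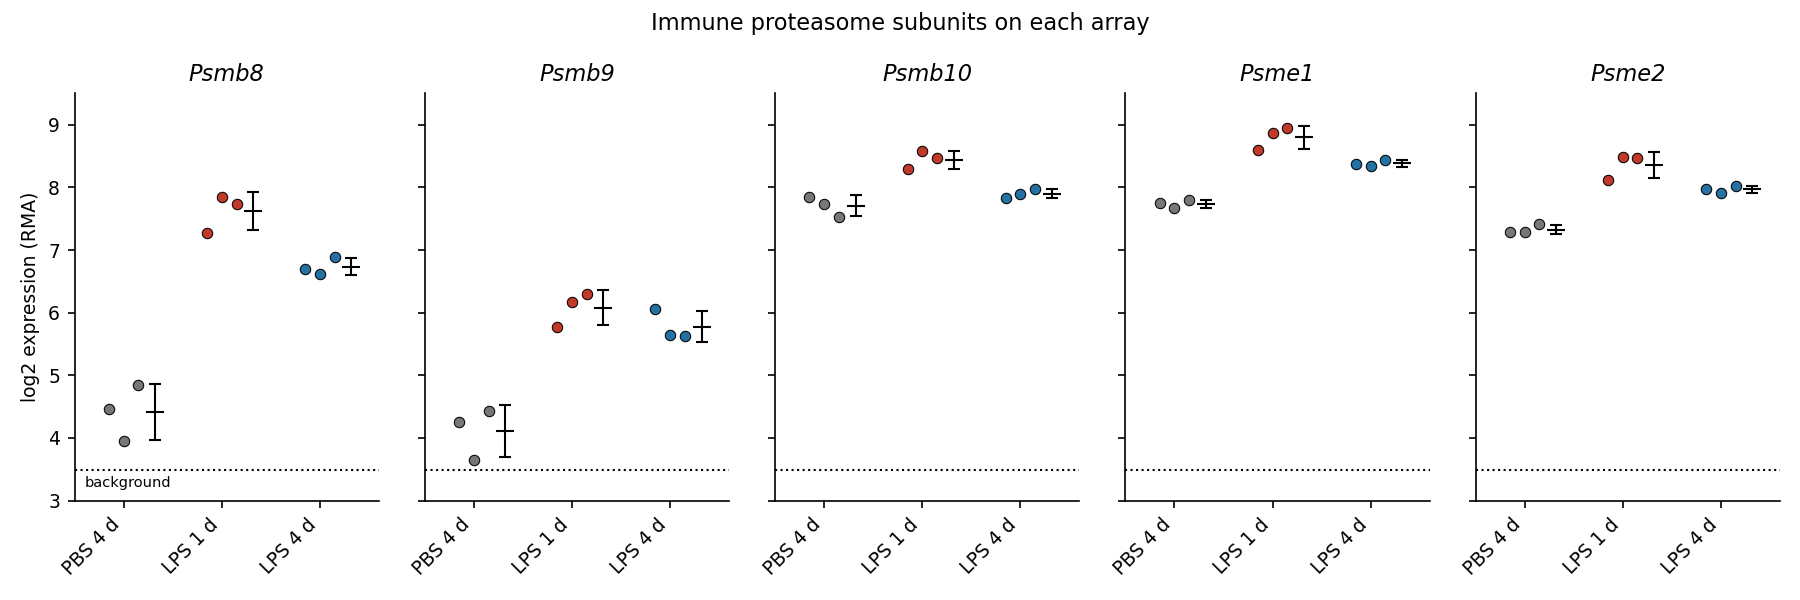
Log2 expression of the 5 immune subunits on each of the 9 arrays, by group. Points are arrays (pools of 3 mice), bars are the group mean ± SD, n = 3, and the dotted line is the background level of 3.49. All LPS 1 d points lie above all PBS points in each panel, and Psmb10 is the panel in which the LPS 4 d and PBS points overlap.

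The lowest LPS 1 d array was replicate 1 for all 5 immune subunits. The same array was lowest for 432 of the 660 genes that passed as higher at 1 d (65.5%). Without that array the 5 genes again passed at 1 d.

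Several probe sets were annotated to Psmb8 and to Psmb9, and they did not give the same course. Background was taken as the highest mean of the 23 nonspecific control probe sets, 3.49 log2 units. A second probe set of Psmb9 read 3.28, 3.47 and 3.82 under PBS, 6.04, 6.42 and 6.34 at LPS 1 d and 5.09, 4.75 and 5.17 at LPS 4 d. On this probe set the 3 groups did not overlap. Its log2 change was 2.74 at 1 d (SE 0.17, limma adjusted p = 2.49e-05), 1.48 at 4 d (SE 0.17, limma adjusted p = 0.00116) and -1.27 between the LPS times (SE 0.17, limma adjusted p = 0.00478). The PBS mean of this probe set, 3.53, was just above background, so its changes over PBS start near the floor. Under the annotation used, the rise of Psmb9 over PBS was thus seen on both probe sets above background, and a decline from 1 d to 4 d that passed on 1 of them only. The probe sequences were not checked, and whether both probe sets read the same transcript was not tested. The third probe set of Psmb9 and the second of Psmb8 were at background in every group and showed no change that passed.

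**Figure D2:**
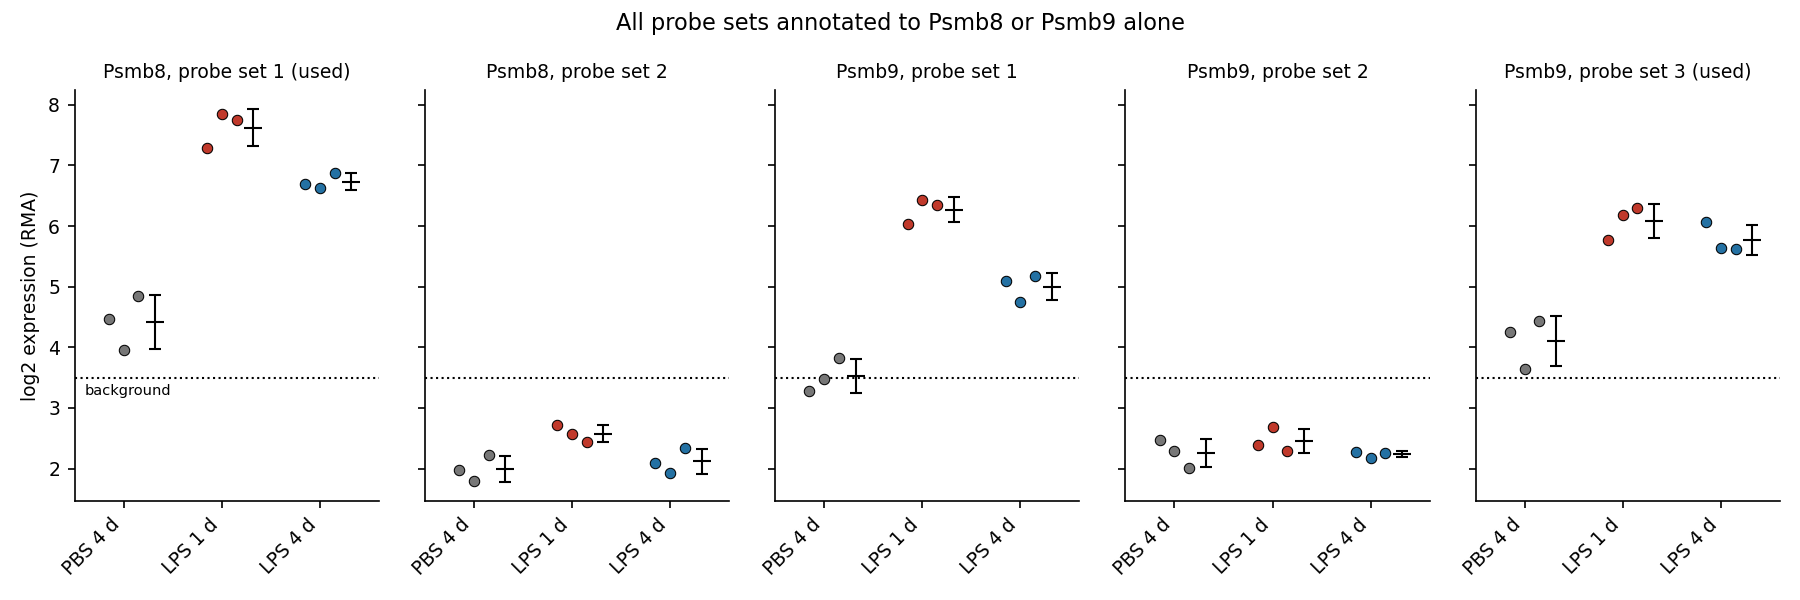
Log2 expression on each array for the 5 probe sets annotated to Psmb8 or Psmb9 alone, by group, with the group mean ± SD (n = 3) and the background level of 3.49 as a dotted line. Probe set 1 of Psmb9 falls from LPS 1 d to LPS 4 d without overlap, whereas the probe set used for the gene, probe set 3, overlaps between those groups.

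The constitutive catalytic subunits that the immune subunits replace stayed near their PBS level. Psmb5 read 9.34, 9.28 and 9.31 under PBS, 9.29, 9.33 and 9.24 at LPS 1 d and 9.17, 9.36 and 9.19 at LPS 4 d. Psmb6 read 8.90, 8.91 and 8.83, then 8.94, 8.89 and 8.92, then 8.90, 8.94 and 8.82. Psmb7 read 8.47, 8.55 and 8.32, then 8.39, 8.47 and 8.29, then 8.39, 8.47 and 8.62. The groups overlapped for all 3 genes in every comparison. At 1 d the log2 changes were -0.03 for Psmb5 (95% interval -0.20 to 0.15), 0.04 for Psmb6 (-0.12 to 0.20) and -0.06 for Psmb7 (-0.28 to 0.16). At 4 d they were -0.07 (-0.25 to 0.11), 0.01 (-0.16 to 0.17) and 0.05 (-0.17 to 0.27), intervals that all lie within a 1.5-fold change.

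Each immune subunit was then set against the constitutive subunit of the same position on the same array, as a difference of log2 values. Such a difference shows unequal change of the pair and not which gene had more RNA, since probe sets differ in brightness. Psmb8 minus Psmb5 was -4.89 ± 0.43 under PBS, -1.66 ± 0.30 at LPS 1 d and -2.51 ± 0.22 at LPS 4 d (mean ± SD, n = 3). It moved by 3.23 at 1 d, by 2.39 at 4 d and by -0.85 between the LPS times, with no overlap in any of these. Psmb9 minus Psmb6 was -4.77 ± 0.45, -2.84 ± 0.29 and -3.11 ± 0.24 in the same order. It moved by 1.93 and 1.66 over PBS without overlap and by -0.27 between the LPS times with overlap. Psmb10 minus Psmb7 was -0.74 ± 0.11, 0.06 ± 0.14 and -0.59 ± 0.05. It moved by 0.80 at 1 d and by -0.65 between the LPS times without overlap, and by 0.15 at 4 d over PBS with overlap. In 2-sided exact permutation tests of 3 arrays against 3, the 7 comparisons without overlap had p = 0.1, the smallest that design allows (0.129 adjusted over the 9 comparisons), and the other 2 had p = 0.2 (adjusted 0.2), so none could reach 0.05.

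**Figure D3:**
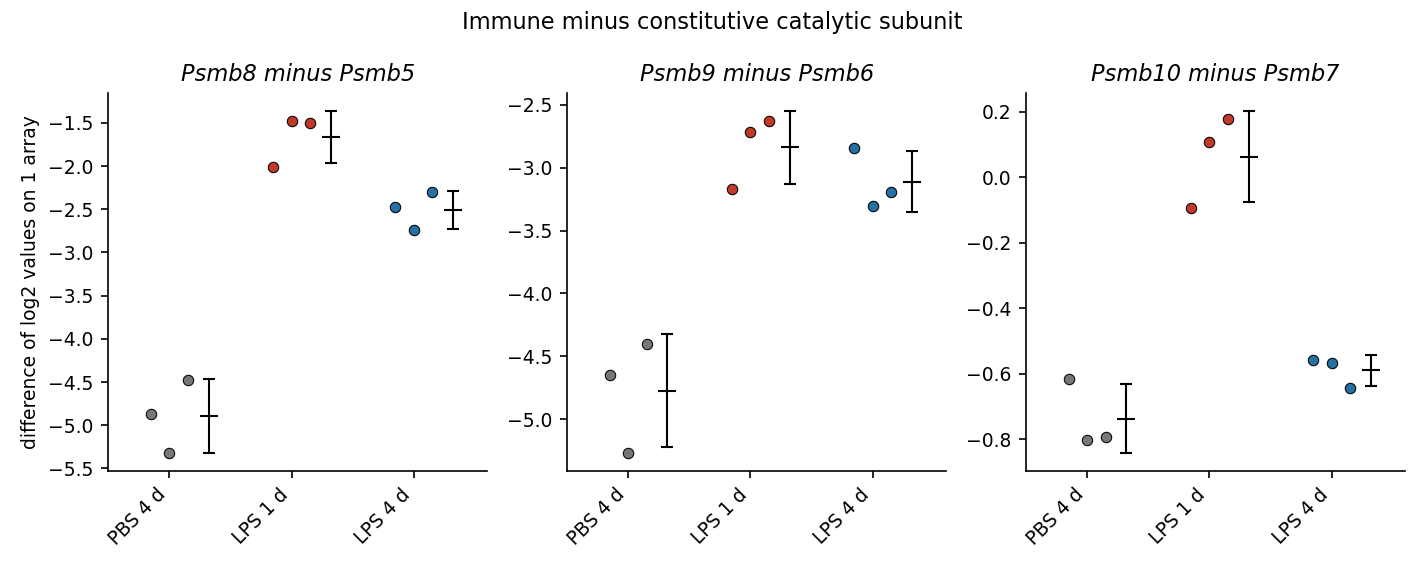
Difference of log2 values between the immune and the constitutive catalytic subunit of the same position on each array, by group, with the mean ± SD (n = 3). Each panel has its own vertical scale. All 3 differences are higher at LPS 1 d than under PBS, and that of Psmb10 minus Psmb7 overlaps PBS again at 4 d.

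The remaining members formed a narrow band. Of the 40, 38 were above background in every group. Psmb11, the thymus-specific catalytic subunit, was at background throughout, and Psma8, the testis-specific alpha subunit, was at background under PBS and at LPS 1 d and just above it (3.50) at LPS 4 d. At 1 d the log2 changes ran from -0.10 (Psma8) to 0.26 (Psmb11), that is, both ends were genes at background, and the 95% intervals of all 40 lay within a 1.5-fold change. At 4 d they ran from -0.18 (Psmg2) to 0.55 (Psma8) and between the LPS times from -0.31 (Psmc4) to 0.65 (Psma8), and Psma8 was the only gene whose interval reached past 1.5-fold in these. The median SD between arrays of a group was 0.05 to 0.07 log2 units for these genes, against 0.08 to 0.20 for the immune subunits.

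Within that band the levels at 1 d leaned upwards. The median log2 change of the 40 genes at 1 d was 0.07 and that of all genes was -0.03. The change was above 0 for 29 of the 40 (72.5%), as for 43.4% of all genes, and for 16 of the 40 every LPS 1 d array was above every PBS array, as for 11.5% of all genes. For 0 of the 40 every LPS 1 d array was below, as for 14.0% of all genes. Against the PBS mean of each gene, the median of the 40 was 0.02, -0.01 and -0.01 on the PBS arrays, 0.07, 0.07 and 0.06 on the LPS 1 d arrays and -0.02, 0.00 and 0.02 on the LPS 4 d arrays. The 3 LPS 1 d arrays had the highest medians. No gene of the 40 had an adjusted p under 0.05, where 5.64% of all genes had one.

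At 4 d the levels of the 40 genes no longer leaned upwards. Their median log2 change was -0.01 against PBS (all genes -0.02), none had an adjusted p under 0.05 (5.43% of all genes), and 4 genes were higher without overlap (12.0% of all genes) and 2 were lower (11.8%). Between the LPS times the median was -0.08 (all genes 0.00), 33 of the 40 changes were below 0 (82.5%, against 49.5% of all genes), and 16 genes were lower without overlap, as for 9.76% of all genes, beside 1 that was higher (Psma8, all genes 11.4%). With each array centred on its own median, a scaling added after the data were seen, the counts were 13 higher at 1 d (10.3% of all genes) and 13 lower between the LPS times (10.0%), and the medians were 0.05 and -0.07. The shared 1 d arrays enter both counts.

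By role, 6 of the 8 genes of the alpha ring, which forms the gate of the barrel, were higher without overlap at 1 d. Among all 40 other members 16 were, and among all genes 11.5%. No difference between roles was tested, and none of these genes had an adjusted p under 0.05. Some gaps were very small: the lowest LPS 1 d array of Psma5 read 8.738 and its highest PBS array 8.736. Of the 8 alpha ring genes 7 had a change above 0 at 1 d, from 0.05 (Psma5) to 0.20 (Psma6), with Psma8 the exception. The 6 without overlap were Psma1 to Psma6. Among the 7 constitutive beta subunits the changes at 1 d ran from -0.06 (Psmb7) to 0.12 (Psmb2). The 3 that did not overlap PBS, as for 11.5% of all genes, were Psmb1, Psmb2 and Psmb4, which have no catalytic site. Psmb3, which has none either, had 0.07 and overlapped PBS. The 3 catalytic ones had changes of -0.06 to 0.04, and a difference between catalytic and other beta subunits was not tested.

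The cap held genes of both kinds. Of the 5 measured ATPases, Psmc1, Psmc2, Psmc3 and Psmc5 had changes between -0.01 and 0.01 at 1 d, whereas Psmc4 had 0.26 (SE 0.08, limma adjusted p = 0.129) and was higher than PBS on every array. At 4 d Psmc4 was -0.05 against PBS, and its -0.31 between the LPS times (SE 0.08, limma adjusted p = 0.0934) was the lowest among the 40. A second probe set of Psmc4 gave 0.09 at 1 d. The 11 non-ATPase subunits ran from -0.04 (Psmd8) to 0.18 (Psmd12) at 1 d. Of these, 5 were higher than PBS without overlap (Psmd1, Psmd4, Psmd6, Psmd7 and Psmd12, of which Psmd4 is a ubiquitin receptor), as for 11.5% of all genes. Other probe sets above background gave 0.005 and 0.24 for Psmd4, 0.08 for Psmd6 and -0.10 for Psmd7 at 1 d. For Psmd11 another gave 0.20, against 0.04 on the one used, and none of these passed. Psmd14, the deubiquitinase of the lid, had a change of -0.01 at 1 d and -0.05 at 4 d.

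Factors that assemble or regulate the particle showed no change that passed. The cap chaperones Psmd5 and Psmd9 had changes of -0.00345 and -0.02 at 1 d, and -0.09 and -0.06 at 4 d. The barrel chaperones Psmg1 to Psmg4 ran from -0.04 (Psmg2) to 0.12 (Psmg4) at 1 d and from -0.18 (Psmg2) to 0.14 (Psmg3) at 4 d. Psme3, the nuclear relative of Psme1 and Psme2 that forms the PA28 gamma ring, had 0.08 at 1 d (SE 0.14, limma adjusted p = 0.84) and -0.10 at 4 d, where its immune relatives had passed. A second probe set of Psme3, also above background, gave 0.33 at 1 d (SE 0.11, limma adjusted p = 0.191) and -0.09 at 4 d. It gave -0.42 between the LPS times (SE 0.11, limma adjusted p = 0.118), and none of these passed. The inhibitor Psmf1 had 0.03 and -0.05.

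**Figure D4:**
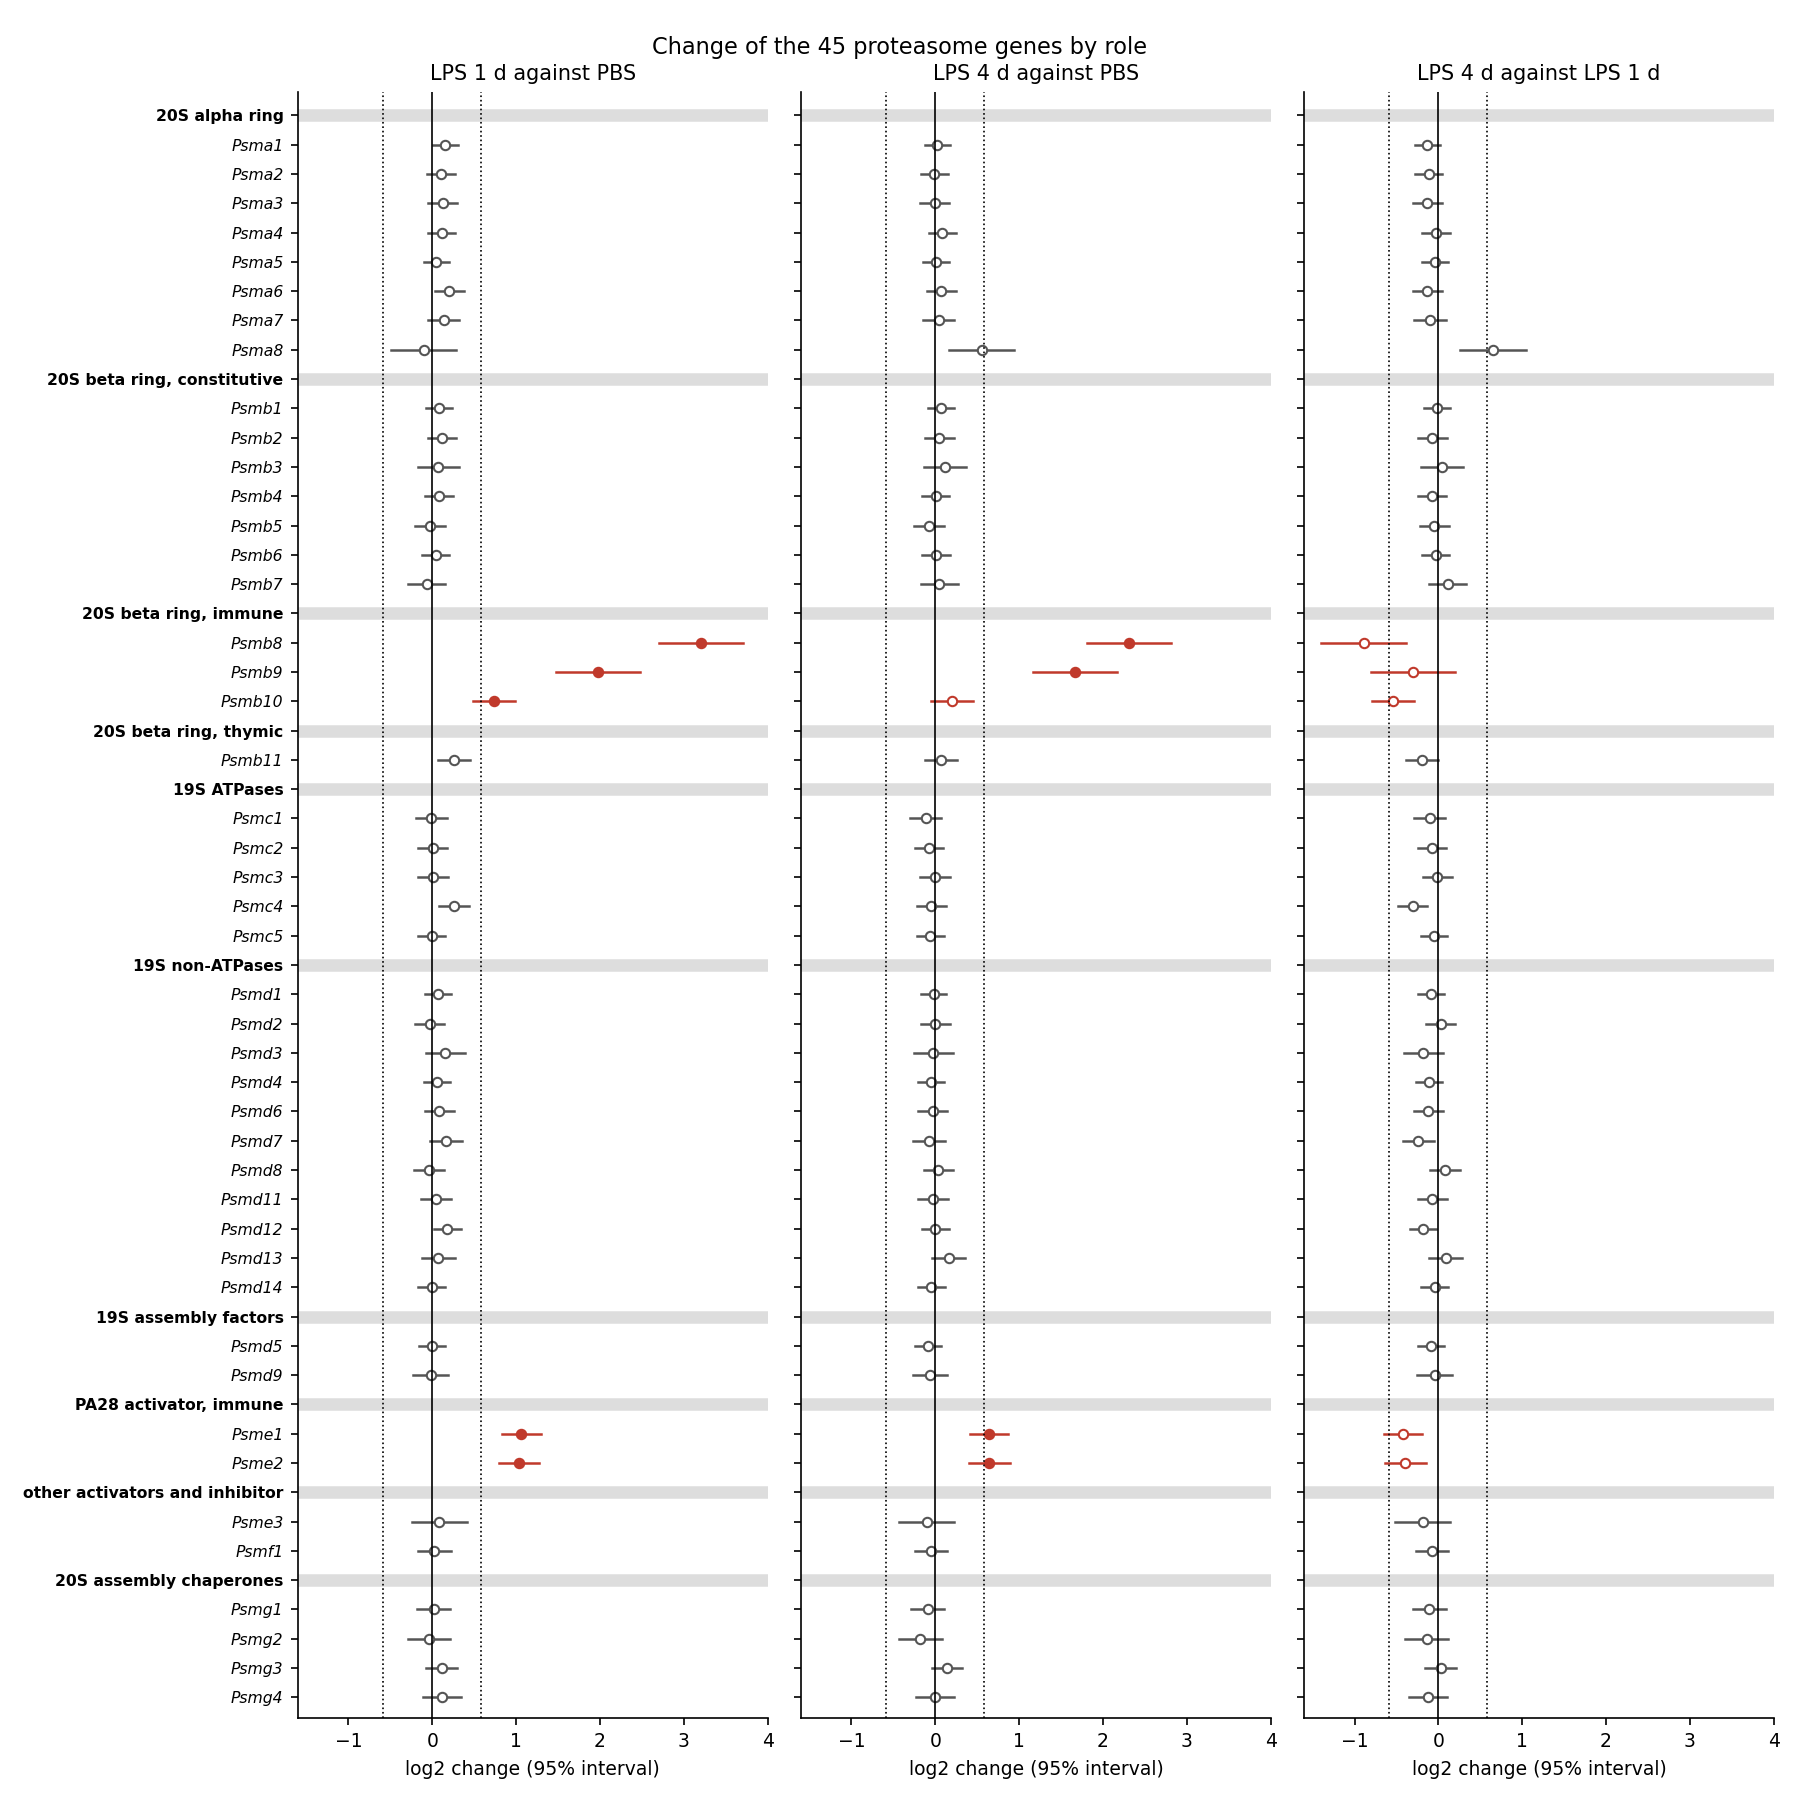
Log2 change of each of the 45 genes in the 3 comparisons, grouped by role, with 95% intervals from limma. Red marks the immune subunits, filled points passed the test, and the dotted lines mark a 1.5-fold change. The filled points are the 5 immune subunits at 1 d and Psmb8, Psmb9, Psme1 and Psme2 at 4 d.

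**Figure D5:**
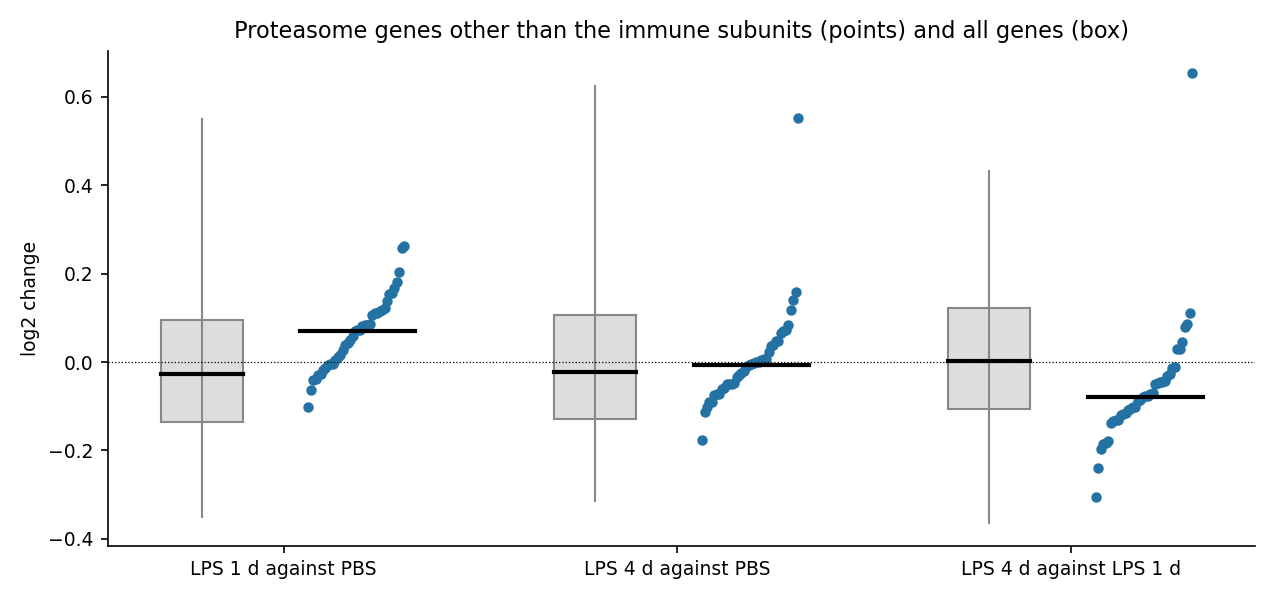
Log2 change of the 40 other members, as points in rank order, beside all 17097 genes, as a box from the 25th to the 75th percentile with lines to the 5th and 95th. Heavy bars are medians, 0.07 for the members and -0.03 for all genes at 1 d. The single high point at 4 d is Psma8, a gene near background.

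Proteins that work with the proteasome but carry other symbols were measured for 14 of 23 listed genes, among them the chaperone Pomp, the cap subunit Sem1 and the regulator Nfe2l1. None of the 14 passed the limma test in any comparison, and at an unadjusted p under 0.05 there was 1 higher and 1 lower at 1 d (9.4% and 8.43% of all genes), 1 and 1 at 4 d (10.6% and 7.07%) and 0 in each direction between the LPS times (9.18% and 7.12%). Their log2 changes at 1 d ran from -0.37 (Zfand5) to 0.19 (Sem1), and their median was -0.05. At 1 d 10 of the 14 changes were below 0 (71.4%, against 56.6% of all genes). Without overlap, 5 of the 14 were lower than PBS at 1 d (14.0% of all genes) and 2 were higher (11.5%).

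Genes of MHC class I presentation, which use the peptides the immunoproteasome makes, were measured for 10 of 13 listed. Of these, 6 passed as higher at 1 d (3.86% of all genes) and 5 at 4 d (4.21%). Between the LPS times 3 passed as lower (1.37%). H2-K1, a class I heavy chain, read 7.54, 7.69 and 7.65 under PBS, 9.72, 10.06 and 9.98 at LPS 1 d and 9.85, 9.67 and 9.67 at LPS 4 d. Its log2 change was 2.30 at 1 d and 2.11 at 4 d, and H2-D1 had 2.32 and 2.23, and between the LPS times they differed by -0.19 and -0.08, which did not pass. The nonclassical H2-T23 had 2.03 and 0.77. Nlrc5, the transactivator of class I genes, was at background under PBS, and against that level it was at least 4.33-fold higher at 1 d and at least 1.67-fold higher at 4 d. Both genes passed at each time and as lower between the LPS times. H2-K1 and H2-D1 are closely related, and both probe sets carry the array's mark for possible cross-hybridisation.

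Interferon signalling genes were measured for 13 of 14 listed, of which 5 passed as higher at 1 d (3.86% of all genes) and 5 at 4 d (4.21%). Of the 13, 2 passed as higher and 4 as lower between the LPS times (1.84% and 1.37% of all genes). Ifng itself was at background in every group (1.99, 1.92 and 2.04 on average). Irf1, a transcription factor known to act on the Psmb9 promoter, had a log2 change of 1.63 at 1 d and 0.96 at 4 d. Irf9 had 1.96 and 0.86. Irf7 was at background under PBS and at least 6.9-fold higher at 1 d, while at 4 d it did not pass (limma adjusted p = 0.0745). Irf8, a factor of myeloid cells, went the other way in time, with 0.70 at 1 d (limma adjusted p = 0.0665) and 1.82 at 4 d. Among 6 of 7 listed ubiquitin-like modifier genes under interferon control, 5 passed as higher at 1 d (3.86% of all genes) and 3 at 4 d (4.21%). Ube2l6 was among those that passed at 1 d. Its means of 1.96 under PBS, 3.06 at LPS 1 d and 2.24 at LPS 4 d were all at background, where a change is not reliable. Rnf213 had log2 changes of 2.31 and 1.25. Usp18, which removes the modifier ISG15, Herc6, its mouse ligase, and Uba7, its activating enzyme, were at background under PBS, so their changes are bounds against that level. Usp18 was at least 11.0-fold higher at 1 d and at least 1.96-fold at 4 d, and Uba7 at least 2.45-fold and 2.62-fold. Herc6 was at least 1.91-fold higher at 1 d and at background again at 4 d.

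Some markers of blood-borne cells also differed between the groups, and not all in the same way. In bulk tissue, more or fewer cells of a type and more or less RNA per cell cannot be told apart. The summed linear level of 4 measured neutrophil markers (of 5) was 42.4 to 125 under PBS, 1455 to 4021 at LPS 1 d and 191 to 380 at LPS 4 d. That of 5 monocyte and macrophage markers (of 6) was 61.5 to 71.9, then 565 to 681, then 879 to 1200, and 4 of the 5 were at background under PBS. That of 4 microglial markers (of 5) was 446 to 471, then 302 to 432, then 854 to 938. These sums hide unlike members. Of the neutrophil markers only S100a8 and S100a9 passed, as higher at 1 d and as lower between the LPS times, and Ngp and Ltf passed in no comparison. Of the monocyte and macrophage markers, Chil3 and Plac8 passed as higher at each time and as lower from 1 d to 4 d, Adgre1 and Ms4a7 passed as higher in all 3 comparisons, and Ccr2 in none. Of the microglial markers, P2ry12 passed as lower at 1 d, Cx3cr1 and Tmem119 as higher at 4 d, and Sall1 in no comparison against PBS. All 6 markers of T and NK cells were at background in every group (30.2 to 31.7, 33.9 to 38.5 and 37.0 to 40.4 summed), although Klrd1 and Nkg7 passed as higher at 4 d, and both measured B cell markers were at background too. The part of any of these cells in the rise of the immune subunits was not tested.

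The tissue label held against its markers. All 4 neuron markers and 3 measured markers of striatal projection neurons (of 5) were above background in every group, and none passed in any comparison. The summed neuron level was 10037 to 10142 under PBS, 9936 to 10091 at LPS 1 d and 9154 to 9774 at LPS 4 d. Of 3 measured oligodendrocyte markers none passed. Among 4 astrocyte markers 1 passed as higher at each time, and among 4 endothelial markers 1 passed as higher at 1 d and 2 at 4 d. Of all genes, 3.86% passed as higher at 1 d and 4.21% at 4 d.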

How the data were processed

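Each of the 9 arrays measured RNA pooled from 3 mice. Per the labels and the study's methods, total RNA was labelled and hybridised to the Affymetrix HT MG-430 PM array plate, and the authors ran RMA with Affymetrix Expression Console, version not given in the sources used here. Values were deposited on the log2 scale, 1 per probe set, after the authors' background correction and normalisation between arrays. That normalisation brings array medians together (4.32 to 4.37) and can hide a shift shared by most genes. The precision is limited by the number of arrays.

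All 45037 probe sets other than 104 control entries were fitted with limma 3.58.1 in R 4.3.3 over the 3 groups together (6 residual and 3.02 prior degrees of freedom), with Benjamini-Hochberg adjustment over all of them. Genes took the probe set annotated to them alone (28898 probe sets, against 551 with several symbols and 15588 with none) with the highest mean. All 72 probe sets of the members matched a mouse gene record by Entrez ID, and 17 members had several. Log2 changes are differences of group means on the deposited scale. Tables and exact permutation tests used Python 3.11.15 and scipy 1.17.1, and the fit was tested on simulated data.

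Immune subunits, their constitutive partners and members that passed are named with full values, and the others by range within their role and by the gene at each end. Context lists are given by counts and up to 4 genes with the largest change that passed. The members, lists and tests were chosen with earlier results of these data known, and none is independent support. Alternatives covered array scaling, choice of probe set, variance model, fold minimum, replicate block and leaving out each array. No column of the authors' own comparisons was used.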

Additional observations from a re-analysis of the deposited data

Results flagged for a closer look

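Limma's contrast of the LPS groups had an adjusted p under 0.05 for 1 proteasome gene and for 9 of the named genes around it. For these genes the difference from PBS was not the same at LPS 1 d and LPS 4 d. Of all genes, 3.87% had an adjusted p under 0.05 in that contrast. The named genes had been picked for the largest change that passed in any comparison, this contrast included. Their count is thus partly fixed by that choice and cannot be set against the share of all genes. With no PBS group at 1 d, time after surgery and the time course of LPS cannot be told apart in this contrast. Psmb10 had a difference of -0.54 (SE 0.11, limma adjusted p = 0.0389), below the fold minimum.

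In antigen presentation, Nlrc5 had -1.37 (SE 0.22, limma adjusted p = 0.0137) and H2-T23 had -1.27 (SE 0.14, limma adjusted p = 0.00156). Among ubiquitin-like modifier genes, Usp18 had -2.49, Rnf213 had -1.06 and Herc6 had -1.24 (limma adjusted p = 0.000749, 0.0186 and 0.00906), and since Herc6 was at background at 4 d it was at least 1.89-fold lower there. Of the interferon regulatory factors, Irf7 had -1.98, Irf9 had -1.10 and Irf1 had -0.67 (limma adjusted p = 0.00881, 0.00288 and 0.0286). Irf8 was the only one of these named genes that was higher at 4 d, by 1.12 (SE 0.17, limma adjusted p = 0.00993). It was not the only one in its list, where 2 genes passed as higher between the LPS times and 4 as lower.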

How the results depend on the processing

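The count of members that passed was 5 at 1 d and 4 at 4 d under every alternative run, and between 5 and 5 and between 4 and 4 when each array was left out in turn. The F-test gave 5 members with each array left out, 7 with an intensity trend and robust variances (Psmc4 and Psmd12 added) and 6 without moderation (Psma1 added). Between the LPS times the count was 0 in the main analysis, 1 with an intensity trend and robust variances (Psmb8), 1 with no fold minimum (Psmb10), 2 with the mean of all probe sets of a gene (Psmb8 and Psmb9), and 0 to 1 when an array was left out (Psmb10 without LPS 1 d replicate 1, Psmb8 without PBS replicate 2). Averaging probe sets, which brings in those at background, also gave a change of Psmb8 minus Psmb5 of 1.92 at 1 d and 1.29 at 4 d, and of Psmb9 minus Psmb6 of 1.03 at 4 d and -0.57 between the LPS times.

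The median change of the 40 other members, for which the alternatives were chosen after seeing the data, was 0.0512 at 1 d with arrays centred and -0.0612 between the LPS times with averaged probe sets. Leaving out an array gave 0.0553 to 0.0753 at 1 d, -0.0230 to 0.00303 at 4 d and -0.0999 to -0.0583 between the LPS times. Signs turned only for small changes that had not passed. Psmb6 at 4 d was -0.00559 with arrays centred. When an array was left out, Psmb6 ran from -0.0202 to 0.0421 at 4 d and from -0.0598 to 0.00247 between the LPS times, Psmb7 at 4 d from -0.0180 to 0.101, Psma8 at 1 d from -0.199 to 0.0820, and Psmg2 at 1 d from -0.0746 to 0.000202. With arrays centred, 5 of the 40 were lower at 4 d without overlap (16.3% of all genes), against 2 (11.8%). The cause was not tested. Of the other values, for single genes and for the counts of the 40 without overlap, 678 stayed the same. A gene stayed the same if it kept direction and side of the threshold, and a count if it moved little. Another 6 single-gene values came to pass, all of Psmb8, Psmb9 or Psmb10 between the LPS times.

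Arrays with the same replicate number did not deviate together (correlations -0.03 to 0.02), so the numbers were not treated as pairs in the main fit. These correlations cannot show whether same-numbered pools were handled together, which the labels do not state. A replicate block gave 5, 4 and 0. With 3 pools a group, calls of the small changes of the 40 other members differed between variance models, and a level at background has no reliable change.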

Other observations

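The chromosomal neighbours of the immune subunits were looked up in RefSeq gene order after the members' values had been seen. On chromosome 14 the order is Psme1, Emc9, Psme2, Rnf31 and Irf9. Emc9, a subunit of a membrane protein insertase that lies between the PA28 genes, had a log2 change of -0.19 at 1 d (SE 0.09, limma adjusted p = 0.315) and -0.13 at 4 d, and Rnf31, a ligase for linear ubiquitin chains, had 0.12 (SE 0.13, limma adjusted p = 0.726) and 0.08. Neither passed, whereas Psme1, Psme2 and Irf9 passed at each time.

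On chromosome 17 the order is H2-DMb2, H2-DMb1, Psmb9, Tap1, Psmb8, Tap2 and H2-Ob. Under the annotation used, Tap1 and Tap2 were not among the genes measured here. H2-DMb2 and H2-DMb1, which load peptides on MHC class II, did not pass at 1 d and passed as higher at 4 d (limma adjusted p = 0.0207 and 0.0304). H2-DMb2 had log2 changes of 0.47 and 0.91. H2-DMb1 was at background under PBS and at 1 d and at least 1.16-fold higher at 4 d. Psmb9 and Psmb8 passed at both times, and whether the courses differ was not tested. H2-Ob was at background. Beside Psmb10 on chromosome 8, Lcat, a cholesterol esterifying enzyme, had 0.03 at 1 d and 0.63 at 4 d (SE 0.08, limma adjusted p = 0.00261). Pskh1, Ctrl and Slc12a4, also looked up there, passed at neither time.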
